A study of Arabidopsis thaliana with 4 samples.

Results

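AT1G66800, annotated as a member of a cinnamyl-alcohol dehydrogenase-like family, and AT5G14700, annotated as a reductase of the same superfamily, are the 2 genes described here. Each had 1 probe that names a single gene, out of 9253 Arabidopsis thaliana genes with such probes on the array. The genes lie on chromosome 1 and chromosome 5 and were chosen by their low nai1-1 over Col-0 ratios in the data below, so those ratios are given as a description and with no test. Roots of nai1-1, a mutant that lacks ER bodies, were compared with roots of the wild-type accession Col-0 on 4 two-colour arrays, and each array carried both genotypes. Plants of both genotypes were untreated and 20 days old, and had grown together on plates of MS medium with 1% sucrose at 22 °C in continuous light. RNA from 3 plants made up each pool of a genotype. The labels number the arrays 1 to 4 without saying whether separate pools were used, so standard errors (SE) and p-values describe how far these arrays differ, and that spread may be technical.

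Both genes belong to a large group of NAD(P)-binding reductases that also holds cinnamoyl-CoA reductase, dihydroflavonol 4-reductase and anthocyanidin reductase. In lignin synthesis, cinnamoyl-CoA reductase turns activated hydroxycinnamic acids into aldehydes, and cinnamyl alcohol dehydrogenase then turns the aldehydes into the alcohols from which lignin is built. The true cinnamyl alcohol dehydrogenases are zinc enzymes of another dehydrogenase family, so the name of AT1G66800 is a label of resemblance and not of a measured activity. NAI1, the gene mutated in nai1-1, encodes a basic helix-loop-helix transcription factor, and the ER bodies of roots store the beta-glucosidase PYK10. Named probes covered 0 of 9 listed cinnamyl alcohol dehydrogenase genes, which leaves that family not analysed here.

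The deposited log10 ratios of AT1G66800 were 0.781 on array 1, -0.764 on array 2, -0.803 on array 3 and 0.858 on array 4. Those of AT5G14700 were 0.508, -0.533, -0.579 and 0.692 in the same order. For both genes the sign was positive where nai1-1 was in Cy3 (arrays 1 and 4) and negative where it was in Cy5 (arrays 2 and 3). The extraction software writes Cy5 over Cy3 by convention, which the submitters do not state. Under that convention every value of both genes is lower in nai1-1, and under the opposite one every value here, of these and of all other genes, changes sign.

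Turned to nai1-1 over Col-0 on the log2 scale, AT1G66800 was at -2.59 on array 1, -2.54 on array 2, -2.67 on array 3 and -2.85 on array 4. The 4 arrays lay within 0.31 of each other, with array 4 lowest. The mean was -2.66 ± 0.14 (SD, n = 4), with an SE of 0.09 in the limma fit, which leaves 15.8% of the Col-0 signal or a 6.33-fold lower level. On single arrays the fold ran from 5.81 to 7.21.

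AT5G14700 was at -1.69 on array 1, -1.77 on array 2, -1.92 on array 3 and -2.30 on array 4. Its spread of 0.61 was wider than that of AT1G66800, and array 4 was again the lowest. The mean was -1.92 ± 0.27 (SD, n = 4), with an SE of 0.13, which leaves 26.4% of the Col-0 signal or a 3.78-fold lower level. On single arrays the fold ran from 3.22 to 4.92.

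The ranges of both genes did not overlap, since the highest AT1G66800 value, -2.54, lay below the lowest AT5G14700 value, -2.30. AT1G66800 was below AT5G14700 by 0.91 on array 1, 0.77 on array 2, 0.74 on array 3 and 0.55 on array 4. The difference AT1G66800 minus AT5G14700 had a mean of -0.74 ± 0.15 (SD, n = 4). It compares ratios of different probes and says nothing of which transcript is more abundant, because the deposited values hold no level for either genotype.

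Among the genes that define the study, NAI2, which is required for ER body formation, was at -2.81 ± 0.11 (SE), and PYK10 was at -2.01 ± 0.11. NAI1 itself was at -0.70 ± 0.19. NAI2 and PYK10 passed the threshold of an adjusted p under 0.05 in the limma fit (0.0181 and 0.032) and NAI1 did not (0.259). Whether the nai1-1 lesion lowers the NAI1 transcript is not in the labels, and its ratio is therefore no check of them.

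**Figure D1:**
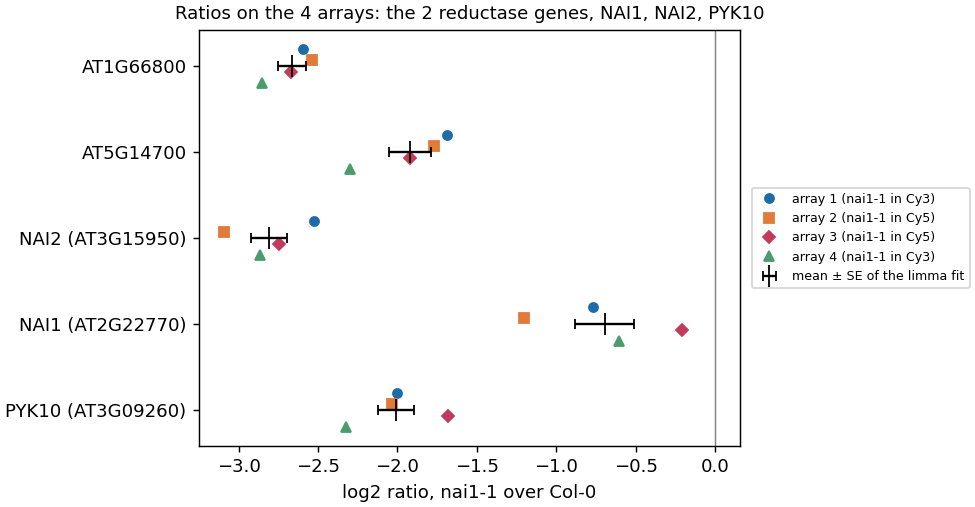
Log2 ratio of nai1-1 over Col-0 (x axis) for AT1G66800, AT5G14700, NAI2, NAI1 and PYK10 (rows); each coloured symbol is 1 array, and the black tick with its bar is the mean ± SE of the limma fit. All 4 values of AT1G66800 lie between -2.85 and -2.54 and all 4 of AT5G14700 between -2.30 and -1.69, and the values of NAI1 lie nearer to 0.

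Arrays 1 and 2 were wider than arrays 3 and 4, with median absolute deviations over all probes of 0.388, 0.325, 0.218 and 0.185 on arrays 1 to 4. The ratio of AT1G66800 was 6.68 times the deviation of its array on array 1, 7.81 times on array 2, 12.2 times on array 3 and 15.4 times on array 4. For AT5G14700 the same quotients were 4.35, 5.45, 8.83 and 12.4. Relative to the spread of each array, both genes thus stood farther out on arrays 3 and 4 than on arrays 1 and 2. When every array was scaled to the same deviation the means were -2.81 for AT1G66800 and -2.07 for AT5G14700.

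Counted from the lowest ratio among 9335 named probes, AT1G66800 was at rank 8 on array 1, 9 on array 2, 13 on array 3 and 13 on array 4. AT5G14700 was at rank 32, 35, 43 and 32 in the same order. By the mean over 4 arrays the ranks were 11 and 27. The named gene just below AT1G66800 was AT3G01830 at -2.73, and the one just above was AT1G20310 at -2.57. AT5G14700 stood between AT1G14120 at -1.94 and AT1G74450 at -1.90.

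**Figure D2:**
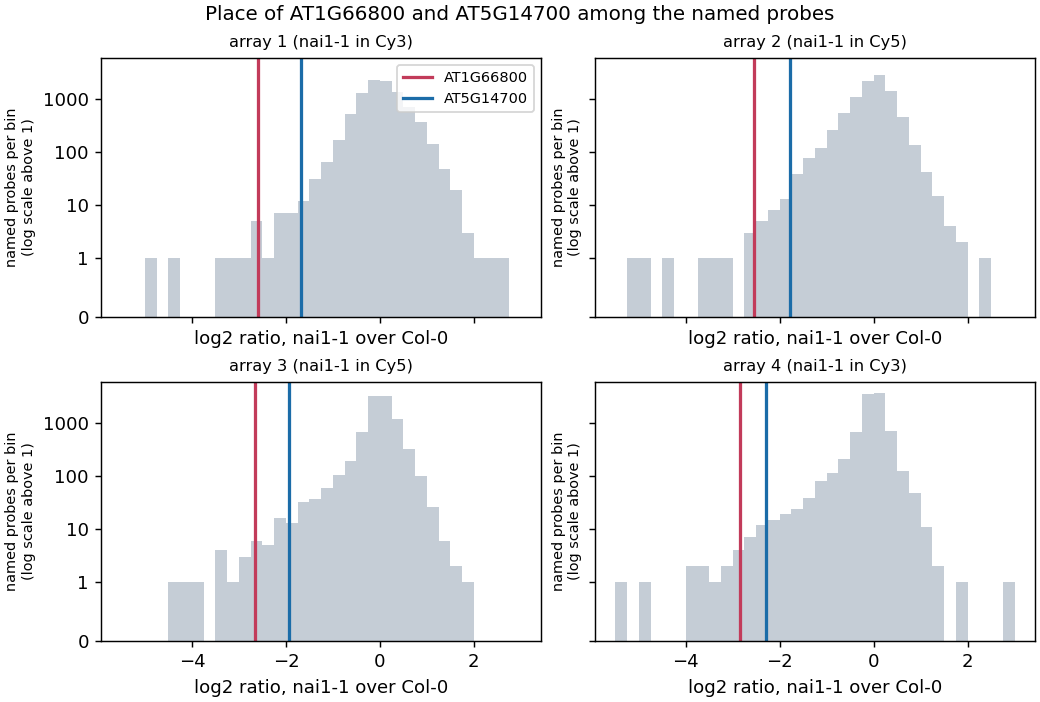
Number of named probes (y axis, log scale above 1) by log2 ratio of nai1-1 over Col-0 (x axis, bins of 0.25) on each of the 4 arrays; vertical lines mark AT1G66800 (red) and AT5G14700 (blue). Both lines lie in the sparse lower tail on each array, AT1G66800 at ranks 8 to 13 and AT5G14700 at ranks 32 to 43 from the lowest, and the bulk of probes is narrower on arrays 3 and 4.

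Since dyes were swapped, a dye effect could be estimated beside the genotype difference, from the same 4 ratios of each gene. AT1G66800 averaged -2.72 on the arrays with nai1-1 in Cy3 and -2.60 on those with nai1-1 in Cy5, and AT5G14700 averaged -1.99 and -1.85. The dye effect, Cy5 over Cy3 on the log2 scale, was 0.06 ± 0.09 (SE) for AT1G66800, with a 95% interval from -0.18 to 0.30 (adjusted p = 0.89, limma). For AT5G14700 it was 0.07 ± 0.13, with an interval from -0.28 to 0.43 (adjusted p = 0.909). Neither passed the threshold, and limma called 0.0% of all 22575 probes for the dye term, with 1217 at an unadjusted p under 0.05. Of the unnamed probes below AT1G66800 on array 2, 375 had an estimated dye effect below -1 and were not called either. These probes were picked for low values on array 2, which enter that estimate, so their count is a description. With 0.0% of all probes called, a missing call of this term does not show that a dye effect is absent. Grouped the other way, the mean of arrays 3 and 4 was lower than that of arrays 1 and 2 for both genes, by 0.19 for AT1G66800 (-2.76 against -2.57) and by 0.38 for AT5G14700 (-2.11 against -1.73).

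The next question was whether other reductases of the same family were lower in nai1-1 roots as well. The list of the cinnamoyl-CoA reductase and dihydroflavonol reductase family held 22 loci besides the 2 genes, and 12 of them were measured. In the fit over all probes 1 of the 12 fell (8.33%), 0 rose and 11 did not pass. That fit called 54 of 9335 named probes lower (0.578%) and 1 higher (0.0107%). The 12 genes had a median of -0.10, against 0.02 for all named probes, and 4 of the 12 (33.3%) were below 0 on 4 arrays, as were 12.2% of all named probes. Without probes whose deposited ratio was exactly 0 on any array, 3 of the 12 (25%) fell and 0 rose, and that fit called 3.5% of 9247 named probes lower and 0.627% higher. The list was not tested as a group.

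AT1G09510, a reductase gene of this family, was the 1 that fell in the fit over all probes. It was at -1.70 on array 1, -1.77 on array 2, -1.19 on array 3 and -1.56 on array 4. It lay below 0 on 4 of 4 arrays. On array 1 it was slightly lower than AT5G14700 (-1.70 against -1.69), and on array 2 the values of both were equal after rounding. The mean was -1.56 ± 0.13 (SE), which is 2.94-fold lower (adjusted p = 0.0454, limma). This call was lost with each array left out in turn (adjusted p from 0.21 to 0.411) and with arrays scaled to the same deviation (0.222). It was also lost with arrays 1 and 2 and arrays 3 and 4 averaged as pairs (0.255), a grouping that the labels do not give. Each of these fits called 0 of 22575 probes, so the loss is not particular to AT1G09510. Without probes holding an exact 0 AT1G09510 passed also with any array left out (adjusted p from 0.00144 to 0.0248) and with averaged pairs (0.0404).

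AT4G30470 and AT1G09500 did not pass in the fit over all probes but did without exact 0 values, and AT4G30470 also without a dye term (adjusted p = 0.0407). AT4G30470 was at -0.92 on array 1, -0.86 on array 2, -0.94 on array 3 and -1.49 on array 4, so array 4 stood apart as the lowest. Its mean was -1.05 ± 0.12 (SE), with an adjusted p of 0.0738 over all probes and 0.00847 without exact 0 values. AT1G09500 was at -0.60 on array 1, -1.23 on array 2, -0.74 on array 3 and -0.75 on array 4. Its mean was -0.83 ± 0.11, with adjusted p-values of 0.0914 and 0.017. Neither call held when pairs of arrays were also averaged (adjusted p = 0.0685 and 0.0797). Without exact 0 values both calls were also lost with array 2 or array 3 left out, and held with array 1 or array 4 left out.

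AT1G09490, AT1G09500 and AT1G09510 stand side by side in the RefSeq gene order. AT1G09490 had values of 0.04, -0.16, 0.15 and 0.09 on arrays 1 to 4 and a mean of 0.03 ± 0.09 (SE, adjusted p = 0.928). Its 4 values did not overlap with those of AT1G09500 or AT1G09510. Cross-hybridisation between related reductase genes was not assessed, since no probe or transcript sequences were used here.

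CCR2, a cinnamoyl-CoA reductase, was at -0.17, -0.43, -1.08 and -0.33 on arrays 1 to 4. It was below 0 on 4 of 4 arrays, with array 3 lowest, and had a mean of -0.50 ± 0.14 (adjusted p = 0.262). DFR, the dihydroflavonol reductase of anthocyanin synthesis, was at -0.42 and -0.61 on arrays 1 and 2 and at 0.83 and 0.54 on arrays 3 and 4. Its sign thus differed between these pairs of arrays, and its mean of 0.09 ± 0.31 (adjusted p = 0.935) had the largest SE of the 12. BAN, the anthocyanidin reductase, was at -0.15 ± 0.09 (adjusted p = 0.577).

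The 5 further family genes not yet described were near 0 in their means. AT2G23910 was at -0.12, AT2G02400 at -0.07, AT5G58490 at 0.07, AT4G27250 at 0.07 and AT5G19440 at 0.14, with SEs between 0.08 and 0.13 and adjusted p-values between 0.674 and 0.823. AT2G23910 ranged from -0.55 on array 1 to 0.36 on array 3. None of these 5 genes reached the range of AT1G66800 or AT5G14700 on any array. A gene that did not pass is not shown to be equal in both genotypes.

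**Figure D3:**
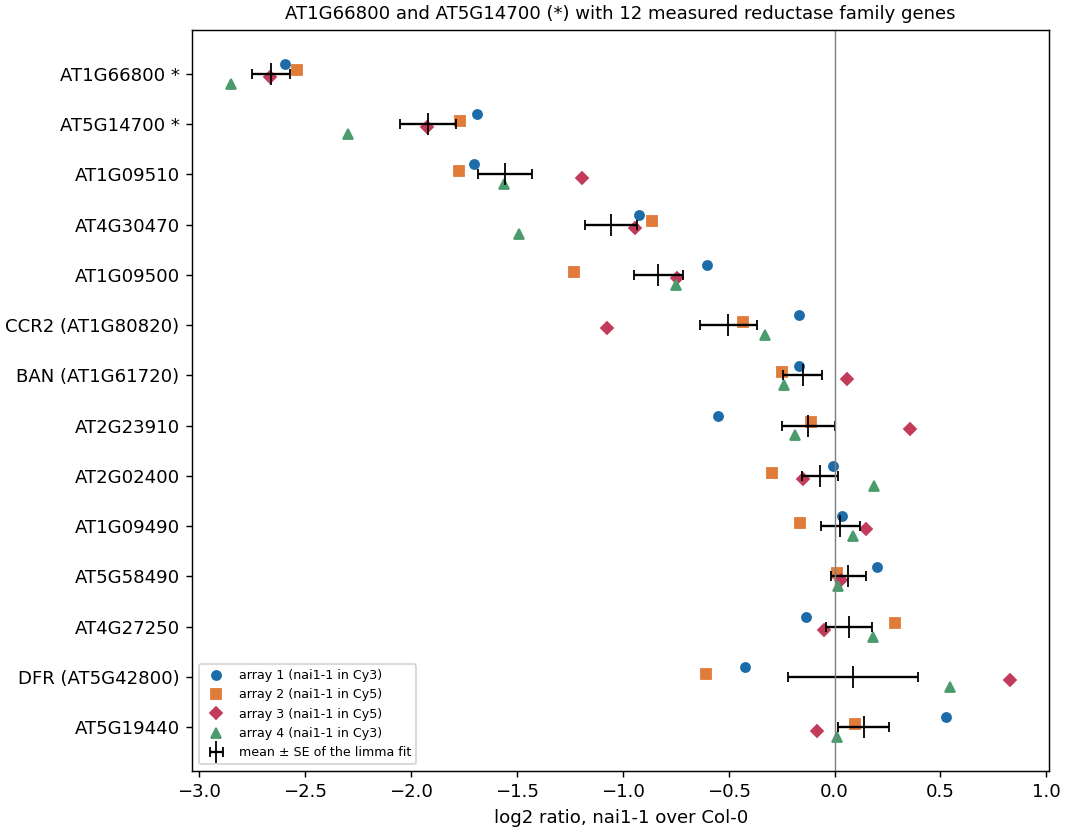
Log2 ratio of nai1-1 over Col-0 (x axis) of AT1G66800, AT5G14700 (starred) and 12 measured reductase family genes (rows, ordered by mean); symbols are single arrays and the black tick with its bar is the mean ± SE of the limma fit. AT1G09510, AT4G30470 and AT1G09500, with means of -1.56, -1.05 and -0.83, lie between the starred genes and the genes near 0, and the values of DFR fall on both sides of 0.

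Reductases of this kind work beside the general phenylpropanoid pathway, which makes the precursors of lignin, coumarins and flavonoids. Of 28 listed phenylpropanoid and lignin genes 8 were measured, and in the fit over all probes 0 fell, 0 rose and 8 did not pass, beside the 0.578% and 0.0107% of named probes called lower and higher. At an unadjusted p under 0.05, 2913 of all probes differed. The 8 genes had a median of 0.16, with means from -0.50 (CCR2) to 0.75. The highest was AT1G55290, a feruloyl-CoA hydroxylase gene of coumarin synthesis, at 0.57, 0.80, 0.93 and 0.72 on arrays 1 to 4. It was above 0 on 4 of 4 arrays with a mean of 0.75 ± 0.08 (adjusted p = 0.0664 over all probes), and it rose without exact 0 values (0.0139) but not with pairs of arrays also averaged (0.0889). The call without exact 0 values was also lost with array 2 or array 3 left out, and held with array 1 or array 4 left out.

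HCT, a hydroxycinnamoyl transferase on the way to lignin, was at 1.17, 0.42, 0.09 and 0.51 on arrays 1 to 4, with a mean of 0.55 ± 0.15 (adjusted p = 0.254). It was above 0 on 4 of 4 arrays and highest on array 1. CYP84A4, a cytochrome P450 related to ferulate hydroxylase, was at 0.32 ± 0.14, with 1.12 on array 1 and -0.14 on array 3 (adjusted p = 0.444). AT3G13610, another feruloyl-CoA hydroxylase gene, was at 0.18 ± 0.11, and CCOAMT, a methyltransferase gene, was at -0.09 ± 0.08. The peroxidase genes AT1G71695 and AT5G66390 were at 0.14 ± 0.10 and 0.08 ± 0.14. None of these passed, with adjusted p-values between 0.583 and 0.842 for the last 4.

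Of 9 listed flavonoid synthesis genes 3 were measured and 0 passed in the fit over all probes, beside the same 0.578% and 0.0107% of named probes. Besides DFR and BAN this list held CHIL, a chalcone isomerase-like gene, at 0.19 ± 0.09 (adjusted p = 0.464).

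The genes next to AT1G66800 and AT5G14700 on the chromosome were examined to see whether a stretch of neighbouring genes was lower together. Among the 10 nearest genes on each side of AT1G66800 in the RefSeq order, 7 were measured, and in the fit over all probes 0 fell and 0 rose, beside 0.578% and 0.0107% of named probes. Their median was -0.16. AT1G66760, a transporter gene of the MATE family, was the lowest at -0.45, -1.43, -1.11 and -1.12 on arrays 1 to 4, with a mean of -1.03 ± 0.15 (adjusted p = 0.0969). It fell without exact 0 values (0.0136), and averaging pairs of arrays as well gave 0.0575. That call was also lost with array 2 or array 3 left out, and held with array 1 or array 4 left out. The other 6 (SGA2, AT1G66820, AT1G66830, AT1G66850, AT1G66860 and AT1G66870) had means between -0.26 and 0.12. The nearest gene with a named probe, AT1G66820, was at 0.12 ± 0.16 (adjusted p = 0.782).

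Around AT5G14700, 10 of 20 neighbours were measured, 1 fell and 0 rose in the fit over all probes, beside the same 0.578% and 0.0107% of named probes. AT5G14730, which stands 3 genes away, was at -1.16 on array 1, -1.30 on array 2, -1.19 on array 3 and -1.17 on array 4. The 4 arrays were close together and all below 0. The mean was -1.20 ± 0.08 (SE), a 2.30-fold lower level (adjusted p = 0.0346, limma). This call was lost on all probes with any array left out (adjusted p from 0.176 to 0.411), with arrays scaled to the same deviation (0.222) and with averaged pairs (0.218). Those settings called 0 of 22575 probes, so the loss is not particular to AT5G14730. Without exact 0 values its call held with averaged pairs too (0.041).

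The other 9 measured neighbours of AT5G14700 did not pass. AT5G14690, directly beside AT5G14700, was at 0.50, 0.61, 0.47 and 0.14 on arrays 1 to 4, with a mean of 0.43 ± 0.10 (adjusted p = 0.206). AT5G14710, directly beside it on the other side, was at -0.09 ± 0.08 (adjusted p = 0.678), and AT5G14720, a protein kinase gene, was at -0.14 ± 0.20, with -1.15 on array 2 and values from -0.08 to 0.35 on the others. AT5G14650 was at -0.36 ± 0.11 (adjusted p = 0.293). The 5 remaining measured neighbours (AT5G14610, PDF1B, AT5G14680, FDH and AT5G14790) had means between -0.16 and 0.21, and the median of the 10 was -0.02.

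**Figure D4:**
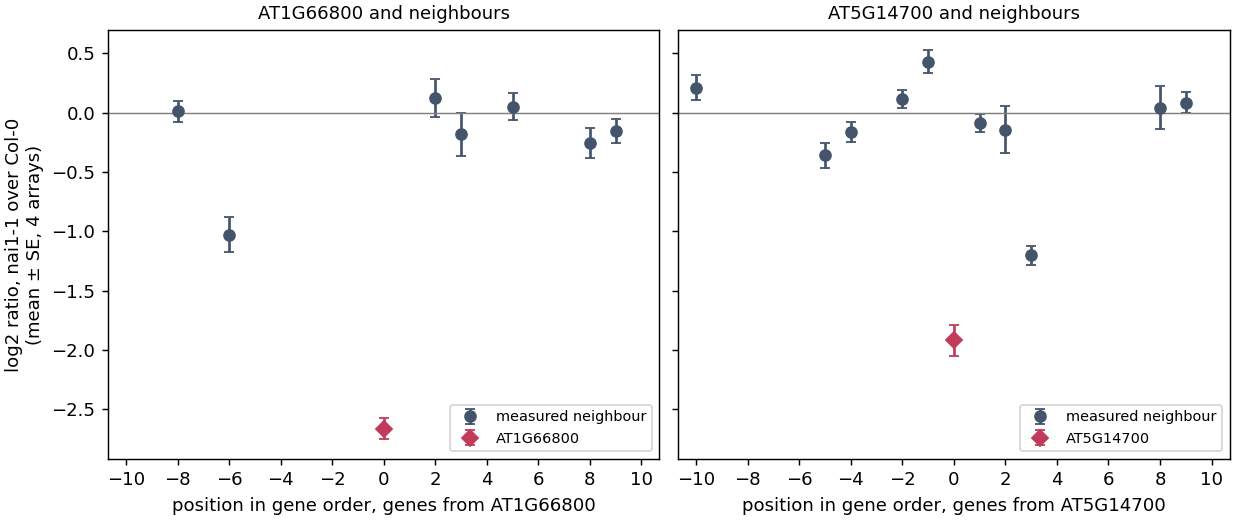
Mean log2 ratio of nai1-1 over Col-0 ± SE of the limma fit over 4 arrays (y axis) by position in the RefSeq gene order (x axis, number of genes away) around AT1G66800 (left) and AT5G14700 (right); diamonds are these genes and circles their measured neighbours. Apart from AT1G66760 at -1.03 and AT5G14730 at -1.20, the measured neighbours lie between -0.36 and 0.43.

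The named genes with ratios most like those of AT1G66800 were found by the root mean square difference over the 4 arrays, which takes both the size and the array-to-array pattern into account. The nearest of 9334 other named probes was that of AT1G20310, with a difference of 0.19 on the log2 scale and values of -2.58, -2.36, -2.36 and -2.99. NAI2 followed at 0.28, AT3G44870, a methyltransferase gene of the SABATH family, at 0.47, BHLH92, a basic helix-loop-helix transcription factor gene, at 0.49, and AT2G32140, a TIR domain gene, at 0.50. Like AT1G66800, AT1G20310, AT3G44870 and AT2G32140 had their lowest value on array 4, whereas NAI2 and BHLH92 had theirs on array 2. AT5G14700 came in place 18 by this measure, with a difference of 0.75.

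For AT5G14700 the nearest was AT5G02170, an amino acid transporter family gene, with a difference of 0.23 and values of -2.07, -1.99, -2.01 and -2.42 on arrays 1 to 4. PYK10, AT1G56660 and AT1G14120, an oxygenase family gene, each followed at 0.24, and AT2G32140 at 0.27. AT1G56660 was spread more widely, with -1.28 on array 1 and -2.44 on array 4, and AT1G14120 more narrowly, with an SD of 0.07 against 0.27 for AT5G14700. The list of 5 shared 1 gene, AT2G32140, with that of AT1G66800. These genes were picked for likeness in the same ratios, so their low values are a description.

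**Figure D5:**
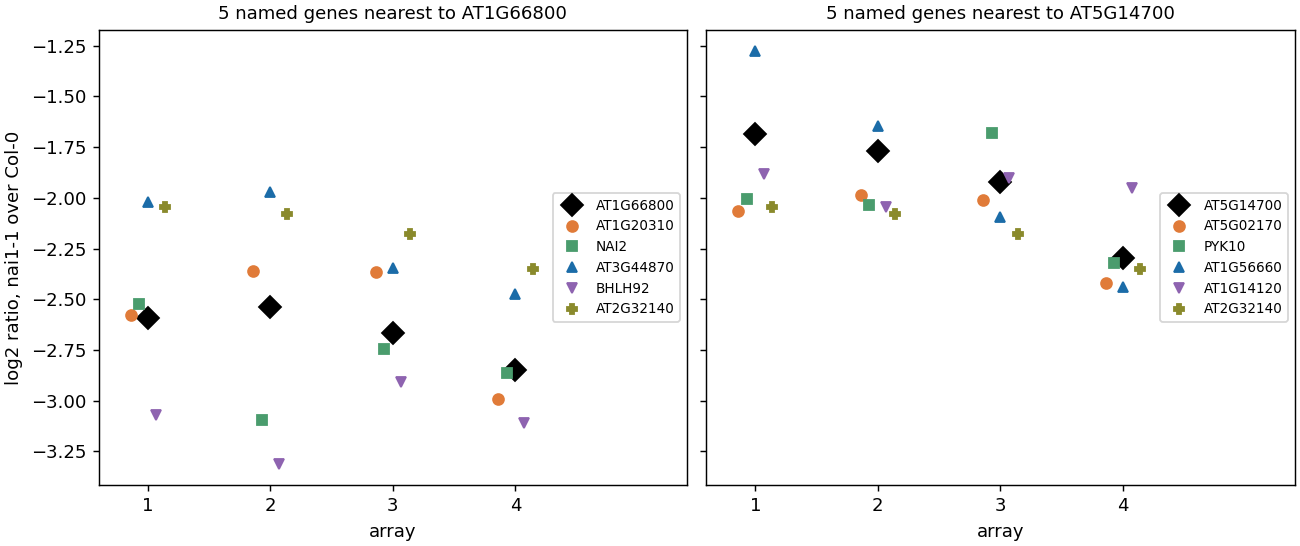
Log2 ratio of nai1-1 over Col-0 (y axis) on arrays 1 to 4 (x axis) for AT1G66800 (left) and AT5G14700 (right), drawn as black diamonds, and for the 5 named genes with the smallest root mean square difference from each, drawn as coloured symbols set slightly apart. BHLH92 lies below AT1G66800 on each array and AT2G32140 above it, and AT1G56660 lies above AT5G14700 on arrays 1 and 2 and below it on arrays 3 and 4.

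The arrays compare mixed root tissue, in which fewer cells that express a gene and less RNA per cell cannot be told apart. Of 62 listed marker genes of shoot tissue and of root cell types 9 were measured, with means between -0.18 and 0.59. In the fit over all probes 0 of the 9 passed, beside 0.578% of named probes called lower and 0.0107% called higher. With shares this low, 0 calls among 9 markers is no result about cell types. Markers of xylem and of the root cap lacked a named probe. The highest was EXPA7, a root hair expansin, at 0.59 ± 0.09 (adjusted p = 0.102), and the other measured root hair expansin, EXPA18, was at 0.38 ± 0.14 (adjusted p = 0.394). EXPA7 was above 0 on 4 of 4 arrays and passed without exact 0 values (adjusted p = 0.0357), but not with pairs of arrays also averaged (0.147) or with any array also left out. The 4 shoot markers had means between -0.18 and -0.09, the 2 endodermis markers were at 0.20 and 0.16, and the single cell division marker was at 0.19. The part of cell composition in the low ratios of AT1G66800 and AT5G14700 was not tested. Since the values are ratios, the labelled tissue could not be checked against levels of its markers.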

How the data were processed

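The authors deposited 1 log10 ratio per probe and array and, per the submitters' processing notes, used Agilent Feature Extraction 7.1. Its background and dye settings are not stated there, and intensities and detection flags were not analysed here. The ratios were put on the log2 scale (division by 0.301), taken as Cy5 over Cy3, and turned to nai1-1 over Col-0 by the dyes in the labels. The array medians were at 0 after rounding, and no other normalization was made. Only 4 arrays limit the precision.

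Of 22575 probes, 9335 had 1 gene in the platform annotation (9253 genes, with 9317 probes matched by Entrez identifier to RefSeq for TAIR10.1), 40 had several and 13200 were not listed. A fit with genotype and dye terms was made with limma 3.58.1 in R 4.3.3 on all probes, two-sided, with Benjamini-Hochberg adjustment over all of them at 0.05. The 1016 probes with an exact 0 on an array stayed in that fit. A repeat without them and other alternatives are in the closing section. Averaging arrays 1 and 2 and arrays 3 and 4 as pairs is an assumed grouping, since the labels name no pairs. Across named probes the Pearson correlation was 0.388 between arrays 1 and 2 and 0.753 between arrays 3 and 4. It was 0.332 to 0.54 for the other combinations. The script was tested on simulated data.

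The 2 genes and all lists were chosen with earlier results of these data known. Named were both genes, NAI1, NAI2 and PYK10, the measured genes of the reductase, phenylpropanoid, flavonoid and marker lists, 10 neighbours on each side, and the 5 most similar genes each. Sequence relatives had been planned by protein search. No protein, promoter or probe sequences were used here, and a family list written from textbook knowledge took their place.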

Additional observations from a re-analysis of the deposited data

Results flagged for a closer look

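Dixon's test for a single array far from the others was applied to 58 genes and picked out 2, where chance picks about 1 in 20. That is not more than this rate gives. Both are among the 12 measured genes of the reductase family list, which is no result about the family. AT4G30470 was at -1.49 on array 4, against values from -0.94 to -0.86 on the other arrays, and without array 4 its mean was -0.91. AT5G58490 was at 0.20 on array 1, against values from 0.01 to 0.03 on the others. AT1G66800 and AT5G14700 did not meet the criterion.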

How the results depend on the processing

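The means of AT1G66800 and AT5G14700 stayed below 0 under every alternative run. Both genes were chosen for low ratios and their highest single-array value was -1.69, so these alternatives could not have changed the sign. With any array left out they ran from -2.73 to -2.60 and from -2.07 to -1.77. Scaling the arrays to the same deviation moved AT1G66800 to -2.81, by more than its SD. The limma fit over all probes called 112 probes, and 0 with scaled arrays, averaged pairs or any array left out (1754 to 3311 at an unadjusted p under 0.05). Without a dye term 394 probes were called, and without exact 0 values 778. Combining the latter with 1 array left out, an alternative chosen after seeing the data like the averaged pairs without exact 0 values, gave 205 to 939 probes.

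The reductase family list, put in place of a planned protein search after the data were seen, had 1 call in the fit over all probes, 3 without exact 0 values, 2 without a dye term, and 0 with scaled arrays, averaged pairs or any array left out. Without exact 0 values and 1 array it had 1 to 3. The phenylpropanoid list went from 0 calls to 1 without exact 0 values and to 1 without a dye term, stayed at 0 with any array left out, and had 0 to 2 without exact 0 values and 1 array. Over all 22575 probes these fits called 112, 394 without a dye term, and 0 with scaled arrays, averaged pairs or any array left out. Of the 21559 probes without exact 0 values, 778 were called, and 205 to 939 with 1 array left out. The list counts changed along with these totals, so their changes are no result about the lists. The dye effects ran from -0.0042 to 0.12 for AT1G66800 and from -0.080 to 0.23 for AT5G14700 with 1 array left out, negative without array 4 only.

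Of 56 other genes, 10 passed in the fit over all probes, which called 0.578% of named probes lower and 0.0107% higher. Of the 10, 6 were in the set only because they were picked for ratios like those of AT1G66800 or AT5G14700. All 10 missed the threshold with scaled arrays, averaged pairs or any array left out on all probes, settings in which 0 probes were called. Without exact 0 values 6 more passed, in a fit that called 3.5% of named probes lower and 0.627% higher. Among these 6, AT1G56660 had been picked for ratios like those of AT5G14700. Another 11 genes, none of which had passed, changed sign with 1 array left out: AT5G66390 ran from -0.086 to 0.24, AT1G09490 from -0.050 to 0.11, DFR (AT5G42800) from -0.27 to 0.45, AT4G27250 from -0.014 to 0.15, SBPASE (AT3G55800) from -0.23 to 0.049 and SGA2 (AT1G66740) from -0.051 to 0.071. AT1G66820 ran from -0.041 to 0.29, AT1G66830 from -0.38 to 0.015, AT1G66850 from -0.049 to 0.15, AT5G14720 from -0.41 to 0.13 and FDH (AT5G14780) from -0.14 to 0.22. The cause of these changes was not tested. No paired analysis was possible because there is 1 group of arrays, each of which already pairs both genotypes.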

Other observations

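The place of AT1G66800 among all probes differed between arrays more than its place among named probes did. On array 2, 385 probes without a name here were lower than AT1G66800, against 4 on array 1, 19 on array 3 and 8 on array 4, while the named probes that were lower numbered 7 to 12 on the 4 arrays. Of the 385 probes, 375 had a dye effect below -1 on the log2 scale, and their median dye effect was -1.72. Their median ratios of nai1-1 over Col-0 were 0.58 on array 1, -2.72 on array 2, -1.69 on array 3 and 1.98 on array 4. These probes were picked for low values on array 2, which enter the dye effect, so their counts and medians are a description. Of the 516 unnamed probes below AT5G14700 on array 2, 465 had a dye effect below -1. Array 3, which also had nai1-1 in Cy5, gave 107 of 148 for AT5G14700 and 11 of 19 for AT1G66800. Arrays 1 and 4, with nai1-1 in Cy3, gave 0 for both genes. All these probes were picked in the same way, by low values on the array named.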
